A study of Mus musculus with 24 samples.

Results

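The genes described here are 40 genes of DNA replication and the cell cycle, measured in mouse liver 6 h after an injection of the active thyroid hormone T3 or of PBS. They were chosen by name and not by a rule on their values, but with earlier results of these data known. Each was read by the probe set whose annotation gives its symbol alone, and by the brightest of these where there were several. Of the 40 genes, 39 had such a probe set, of 18194 genes on the array, and 32 were bright enough to be tested, of 14159 genes tested. Ccnb1 had none and was not analysed here.

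A resting cell that divides first passes a G1 phase, in which cyclin D with Cdk4 and cyclin E with Cdk2 release the E2F transcription factors. E2F then switches on genes of nucleotide supply and of the Mcm helicase that opens DNA at replication origins, and later genes, such as Ccnb2, Cdk1, Top2a and Plk1, act when chromosomes condense and separate. Adult hepatocytes are mostly at rest and T3 is known as a mitogen for them in rodents, so the comparison asks which of these genes had responded within hours.

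Liver RNA came from male mice, 24 arrays in 8 groups of 3, and every group, those given PBS included, had been made hypothyroid for 3 weeks with an iodine-poor diet, methimazole and perchlorate. The groups cross T3 or PBS with 4 genotypes of the thyroid hormone receptor TRβ. Wild type (WT), a TRβ knockout (KO) and GS, a TRβ mutant with E125G and G126S, were on a C57BL/6J background, 8 to 9 weeks old, and drank 0.02% methimazole, 0.5% perchlorate and 0.3% saccharin. Mice with the TRβ mutation Y147F were C57BL/6JCrl, came in a later submission, were 10 to 11 weeks old and drank 0.05% methimazole and 1% perchlorate. The dose of T3, given into the abdomen, was 20 µg per 100 g for WT, KO and GS and 200 ng per g for Y147F, which is equal. The later submission was analysed here with no WT mice of its own, so in a comparison of Y147F with WT the mutation cannot be told apart from submission, age, substrain and drug dose. Arrays were treated as separate mice from the differing numbers in their titles, and p-values measure the spread between these arrays.

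Levels are log2 intensities, and differences are log2 differences of group means with their standard error (SE) from limma, n = 3 arrays a group. A gene was called changed at a Benjamini-Hochberg adjusted p under 0.05 over all genes tested. Array medians lay from 5.88 to 6.00, and arrays of a group correlated at 0.994 to 0.997. Dio1, a deiodinase gene that T3 is known to induce, rose by 6.63 ± 0.28 in WT, 1.82 ± 0.28 in KO, 2.52 ± 0.28 in GS and 7.52 ± 0.28 in Y147F (limma, largest adjusted p = 0.00383). The Thrb probe set did not show the knockout, with means of 6.96 and 6.99 in KO and 6.66 and 6.80 in WT, so it does not check the label. The mean of 11 hepatocyte markers lay from 13.65 to 13.89 in every array. Of them Hnf4a, a transcription factor gene of hepatocytes, fell with T3 in WT (-0.37 ± 0.07, limma, adjusted p = 0.0014), a call kept in all 6 fits without 1 array. It fell in Y147F (-0.23 ± 0.07, adjusted p = 0.0391), a call lost in each of the 6 fits without 1 array (adjusted p from 0.0559 to 0.133). Whole liver was hybridised, so fewer cells of a type and less RNA per cell cannot be told apart.

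The 39 genes spanned a wide range of levels. Pcna, the sliding clamp of the DNA polymerases, was the brightest, at 10.8 to 11.25 in the 24 arrays and on average at the 94.4th percentile of its array. At the other end, 7 genes reached the 40th percentile in none of the 24 arrays and were not tested. They were Tyms, thymidylate synthase (3.90 to 4.28), the licensing factor Cdc6 (3.67 to 4.37), cyclin E2, Ccne2 (4.51 to 5.15), the proliferation marker Mki67 (4.62 to 5.32), Birc5 (4.48 to 5.19), the kinase gene Aurkb (4.18 to 4.63) and the spindle checkpoint gene Bub1 (4.02 to 5.04). Of the 8 genes of mitosis and division, 4 were among them. Just inside the filter were Top2a, with a mean of 5.36 and 10 arrays at the percentile, and Ccnb2, with 5.46 and 17 arrays. A change of the 7 dim genes was not measured, and an intensity depends on the probes, so these levels do not order the genes by transcript number.

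**Figure D1:**
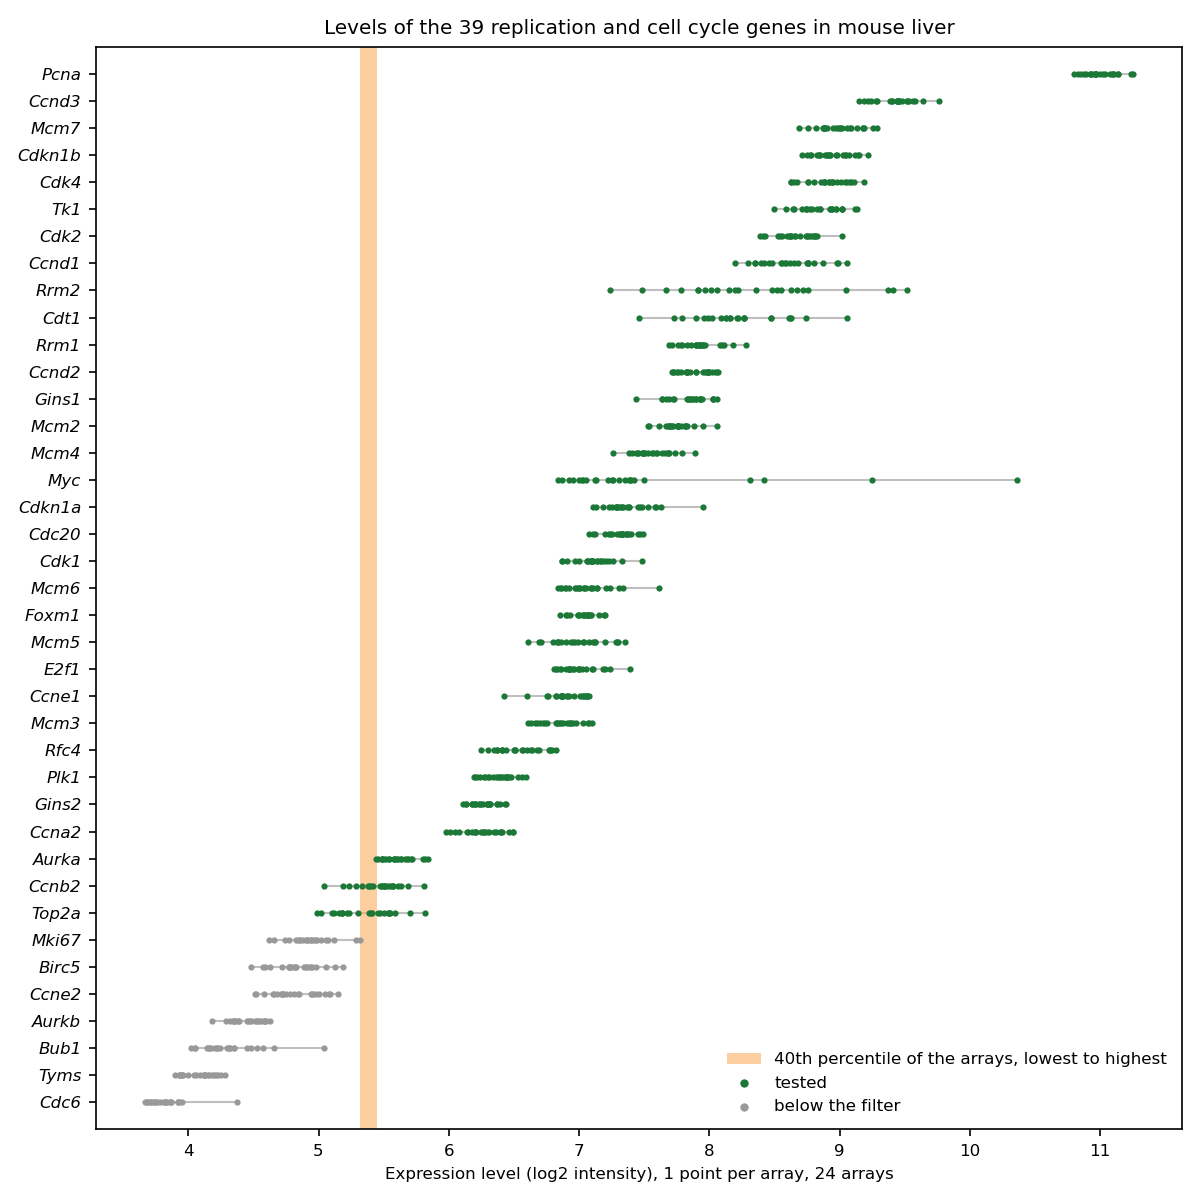
Level of each of the 39 genes (rows) as log2 intensity, 1 point per array for 24 arrays. The 7 genes that were not tested, Mki67 and Bub1 among them, lie at the low end, and Pcna lies highest, near 11.

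In WT liver 5 of the 32 tested genes changed with T3. Rrm2, Gins1 and Mcm4 rose, and Cdk4 and Cdk2 fell. Of all 14159 genes tested, 10.6% changed in WT, 5.72% up and 4.89% down, so the members' count is close to the background. The median difference of the 32 genes was 0.01, against -0.03 over all genes. For 29 of the 32 the 95% interval of the difference lay within 1.5-fold in both directions, 90.6% against 86.9% of all genes. In data simulated for the WT comparison, with 50 changed genes at each size, limma recovered 90% of 1.5-fold changes. Of the smaller changes that were simulated it recovered 28%. A member without a call may thus have changed by less than 1.5-fold.

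In KO and in GS liver none of the 32 genes was called by limma. Of all genes, 0.177% were called in KO and 0.148% in GS, and at an unadjusted p under 0.05 there were 6 members in KO (18.8%, against 10.4% of all genes) and 1 in GS (3.12% against 7.01%). In Y147F liver 4 members changed, against 11.6% of all genes (5.52% up and 6.09% down). Rrm2 and Ccne1 rose, and Cdt1 and Cdk4 fell. Rrm2 and Cdk4 were thus called in the same direction in WT and in Y147F. Between the responses of Y147F and WT no member differed by limma, nor did any of the 14159 genes (0.0%). At an unadjusted p under 0.05 there were 4 members (12.5%) and 756 genes (5.34%).

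**Figure D2:**
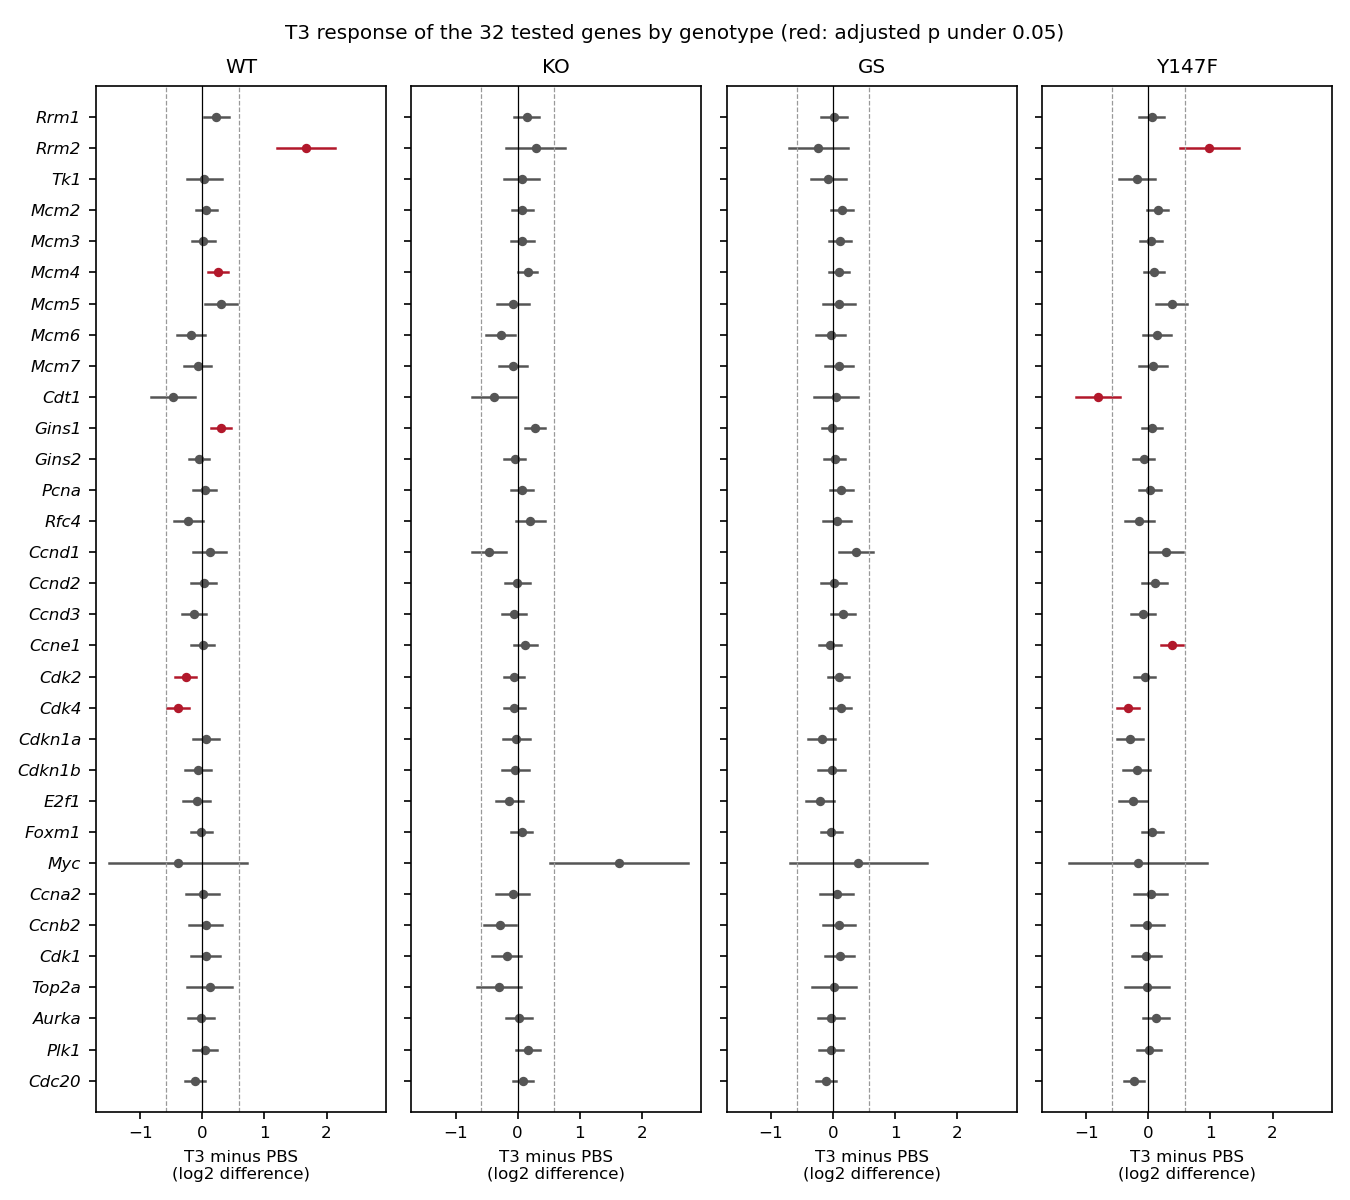
Log2 difference of T3 minus PBS for the 32 tested genes (rows, by role) in WT, KO, GS and Y147F, with 95% intervals and the called genes marked. Rrm2 stands at 1.67 in WT and 0.98 in Y147F, most other genes lie near 0, and Myc has the widest intervals.

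The largest change among the members was that of Rrm2, which encodes the small subunit of ribonucleotide reductase, the enzyme that makes deoxyribonucleotides. In WT its level was 7.24, 7.67 and 7.91 with PBS and 9.05, 9.41 and 9.37 with T3. Every T3 array lay above every PBS array. The rise was 1.67 ± 0.23, or 3.18-fold with a 95% interval from 2.29 to 4.41 (limma, adjusted p = 2.54e-05). Its other probe sets rose by 1.54 and 1.70 in WT (limma over all probe sets, adjusted p = 1.15e-04 and 3.88e-05).

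In Y147F, Rrm2 was at 8.22, 7.78 and 7.97 with PBS and at 8.72, 8.67 and 9.52 with T3, again without overlap. The rise was 0.98 ± 0.23, or 1.98-fold (limma, adjusted p = 0.00629), and 1 of the other probe sets missed the threshold (0.68, adjusted p = 0.07). The response differed from that in WT by -0.69 ± 0.32 (limma, adjusted p = 0.917), with a 95% interval from -1.35 to -0.02. In KO, Rrm2 was at 7.48, 8.06 and 8.15 with PBS and at 8.63, 8.01 and 7.91 with T3. In GS it was at 8.55, 8.76 and 8.48 with PBS and at 8.36, 8.20 and 8.52 with T3. In both the groups overlapped, with differences of 0.29 ± 0.23 in KO and -0.24 ± 0.23 in GS (limma, adjusted p = 0.733 and 0.904).

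The response of Rrm2 was smaller in KO than in WT, by a difference of -1.38 ± 0.32 with a 95% interval from -2.05 to -0.71 (limma, adjusted p = 0.0178). It was smaller in GS than in WT as well, at -1.90 ± 0.32 (limma, adjusted p = 0.00122). Rrm2 was the 1 member whose response differed between KO and WT, where 3.09% of all genes did. The KO call was lost in 6 of 12 fits that left out 1 array, those without WT T3 replicate 2, WT PBS replicate 1, KO T3 replicate 2 or 3, or KO PBS replicate 2 or 3. In these the difference lay from -1.31 to -1.20, with adjusted p from 0.0507 to 0.0582. The GS call was kept in all 12 such fits.

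With PBS alone, Rrm2 was higher in GS than in WT by 0.99 ± 0.23, or 1.98-fold (limma, adjusted p = 0.0188), and the GS arrays lay above all WT arrays. It was the 1 member called between these groups, against 2.95% of all genes. In limma fits the call was lost without WT PBS replicate 1 (0.80, adjusted p = 0.106), GS PBS replicate 1 (1.01, adjusted p = 0.0545) or GS PBS replicate 2 (0.91, adjusted p = 0.082). With PBS, Rrm2 differed from WT by 0.28 ± 0.23 in KO and by 0.38 ± 0.23 in Y147F, neither of them called.

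Rrm1 encodes the large subunit that pairs with the product of Rrm2. In WT it was at 8.11, 7.71 and 7.90 with PBS and at 7.93, 8.28 and 8.18 with T3. The groups overlapped, and the difference of 0.23 ± 0.10 did not pass the test (limma, adjusted p = 0.165), although it did without WT T3 replicate 1 (0.33, adjusted p = 0.048). In the other genotypes Rrm1 differed by 0.14 (KO), 0.02 (GS) and 0.05 (Y147F). Tk1, thymidine kinase of nucleotide salvage, differed by 0.03 ± 0.14 in WT and -0.18 ± 0.14 in Y147F and was not called.

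**Figure D3:**
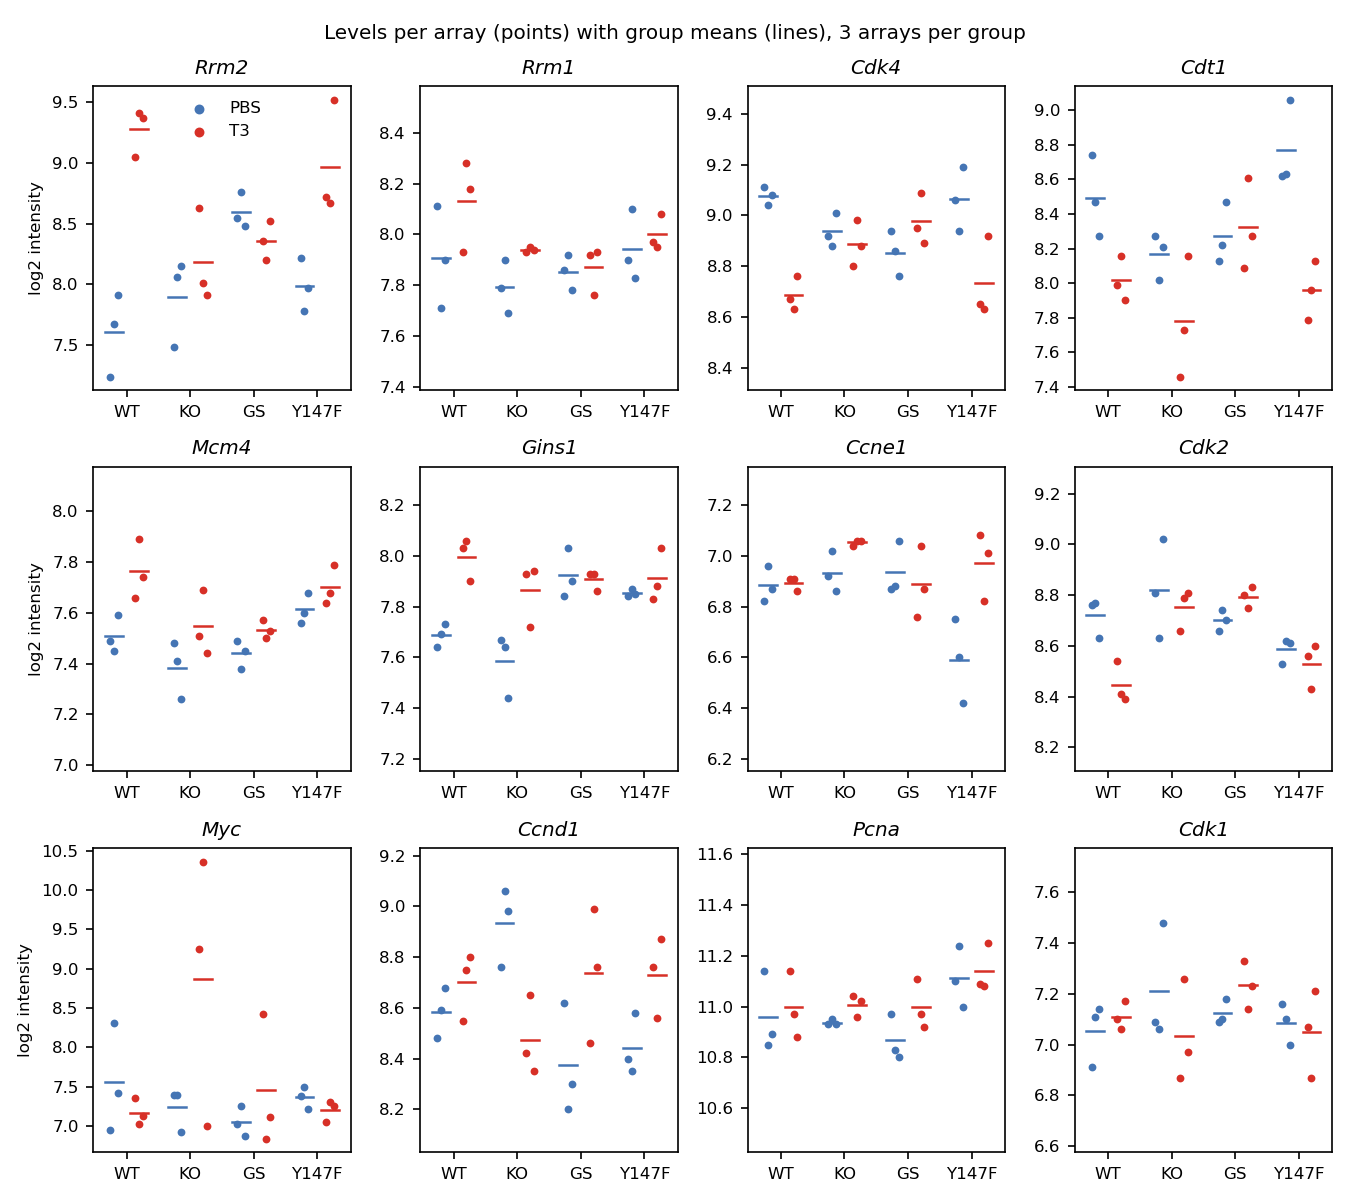
Log2 intensity of single genes per array (points), with group means (lines), for PBS and T3 in WT, KO, GS and Y147F. The T3 points of Rrm2 lie above and those of Cdk4 and Cdt1 below the PBS points in both WT and Y147F.

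The promoters of both subunits of the reductase are shown because the genes serve 1 enzyme and were read with different responses in the same arrays. They run from 250 bases before to 50 bases after the start site, are RefSeq sequences of build GRCm38.p6 on the plus strand, and lie at chr12:24708004-24708303 for Rrm2 and chr7:102441445-102441744 for Rrm1. Capitals mark the words that were searched on both strands.
Rrm2: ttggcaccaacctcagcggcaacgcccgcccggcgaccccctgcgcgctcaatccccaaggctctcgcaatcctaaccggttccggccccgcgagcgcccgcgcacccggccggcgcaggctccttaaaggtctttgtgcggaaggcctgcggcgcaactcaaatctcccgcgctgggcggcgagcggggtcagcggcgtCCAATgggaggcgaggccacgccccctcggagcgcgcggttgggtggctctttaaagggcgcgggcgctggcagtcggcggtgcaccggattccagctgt
Rrm1: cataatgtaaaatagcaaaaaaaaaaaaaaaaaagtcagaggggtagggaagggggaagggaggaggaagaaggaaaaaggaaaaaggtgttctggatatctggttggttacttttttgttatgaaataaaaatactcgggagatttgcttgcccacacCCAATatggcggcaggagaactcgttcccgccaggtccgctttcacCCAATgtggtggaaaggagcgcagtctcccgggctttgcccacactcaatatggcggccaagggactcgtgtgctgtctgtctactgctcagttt
The words were TTTCCCGC, TTTGGCGC, TTTGCCGC and TTTCGCGC for E2F, TTTGAA for the CHR element of mitotic genes, CCAAT, the E-box CACGTG, and AGGTCA of nuclear receptor sites. CCAAT was found at bases 201 to 205 of the Rrm2 window and at bases 160 to 164 and 206 to 210 of the Rrm1 window. The other words were in neither window, which says only that these letters are not there.

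RefSeq promoters were matched for 30 of the 40 members, 33 windows in all. An E2F word was in 24.2% of these windows, against 2.26% of 32851 promoters of the same length, and CCAAT was in 63.6% against 37.4%. The CHR word was in 24.2% against 17.9%, the E-box in 6.06% against 7.15%, and AGGTCA in 15.2% against 16.3%. The 8 members with an E2F word were Mcm3, Mcm5, Mcm6, Mcm7, Cdc6, Cdt1, Cdk2 and Cdk1. Their tested genes differed by -0.47 (Cdt1) to 0.30 (Mcm5) with T3 in WT, and Cdk2 was the 1 called. A match describes the sequence and is not a binding site.

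Of the 10 genes of origin licensing and the helicase, 9 were tested, and 2 rose and 0 fell in WT. The helicase is a ring of Mcm2 to Mcm7 that Cdc6 and Cdt1 load onto DNA and that the GINS complex helps to activate. Gins1, a GINS subunit, was at 7.64, 7.69 and 7.73 with PBS and at 8.03, 8.06 and 7.90 with T3 in WT. The groups did not overlap, and the rise was 0.31 ± 0.08, or 1.24-fold (limma, adjusted p = 0.0112). In limma fits the call was lost without WT T3 replicate 2 (adjusted p = 0.0608) or WT PBS replicate 1 (adjusted p = 0.0519).

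In KO, Gins1 was at 7.67, 7.64 and 7.44 with PBS and at 7.93, 7.72 and 7.94 with T3, also without overlap. That difference of 0.28 ± 0.08 did not pass the test (limma, adjusted p = 0.165). The KO and WT responses differed by -0.03 ± 0.11, with a 95% interval from -0.26 to 0.20. In GS it was at 7.84, 8.03 and 7.90 with PBS and at 7.93, 7.93 and 7.86 with T3, and in Y147F at 7.84, 7.87 and 7.85 and at 7.83, 7.88 and 8.03. Both pairs of groups overlapped.

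Mcm4, a subunit of the ring, was at 7.49, 7.45 and 7.59 with PBS and at 7.66, 7.89 and 7.74 with T3 in WT. The T3 arrays lay above the PBS arrays, and the rise was 0.25 ± 0.08, or 1.19-fold (limma, adjusted p = 0.0358). The call was lost in 4 of 6 fits without 1 WT array, those without T3 replicate 2 or 3 or PBS replicate 1 or 2 (adjusted p from 0.0699 to 0.198). A dimmer probe set of Mcm4 gave 0.34 in WT (adjusted p = 0.395). In KO, Mcm4 was at 7.48, 7.41 and 7.26 with PBS and at 7.51, 7.69 and 7.44 with T3, in GS at 7.49, 7.38 and 7.45 and 7.57, 7.50 and 7.53, and in Y147F at 7.56, 7.60 and 7.68 and 7.64, 7.68 and 7.79. The groups were apart in GS and overlapped in KO and Y147F, and none of the 3 differences, 0.16, 0.10 and 0.09, was called.

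The other ring subunits differed in WT by 0.07 ± 0.08 (Mcm2), 0.02 ± 0.09 (Mcm3), 0.30 ± 0.12 (Mcm5), -0.18 ± 0.11 (Mcm6) and -0.08 ± 0.11 (Mcm7). Thus 1 of the 6 ring genes passed the test in WT and 0 of 6 in Y147F. Mcm5 in Y147F, named after its values were seen, was at 6.90, 6.86 and 7.04 with PBS and at 7.29, 7.30 and 7.35 with T3. These groups did not overlap, and the difference of 0.38 ± 0.12 missed the threshold narrowly (limma, adjusted p = 0.0518). It was called in 4 of 9 other settings (0.375 to 0.397, limma, adjusted p from 0.0338 to 0.049). Gins2 differed by -0.05 in WT and -0.08 in Y147F.

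Cdt1 brings the helicase to origins and is held back by geminin. In Y147F it was at 8.62, 8.63 and 9.06 with PBS and at 7.79, 7.96 and 8.13 with T3. The groups did not overlap, and the difference was -0.81 ± 0.17, a 1.75-fold fall (limma, adjusted p = 0.00281), a call kept in all 6 fits without 1 array. In WT it was at 8.74, 8.47 and 8.27 with PBS and at 7.99, 8.16 and 7.90 with T3, without overlap, and the difference of -0.47 ± 0.17 did not pass the test (limma, adjusted p = 0.0822). A dimmer probe set gave -0.53 in Y147F (adjusted p = 0.0421) and -0.47 in WT (adjusted p = 0.0811).

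In KO, Cdt1 was at 8.27, 8.02 and 8.21 with PBS and at 7.46, 7.73 and 8.16 with T3, and in GS at 8.13, 8.22 and 8.47 and at 8.09, 8.61 and 8.27. Both pairs of groups overlapped, with differences of -0.39 ± 0.17 and 0.05 ± 0.17. The Y147F and WT responses differed by -0.33 ± 0.24 (limma, adjusted p = 0.945).

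The promoters of Cdt1 (chr8:122567765-122568064) and Cdk4 (chr10:127063285-127063584), both on the plus strand of GRCm38.p6, are shown because the T3 arrays of both genes lay below the PBS arrays in WT and in Y147F.
Cdt1: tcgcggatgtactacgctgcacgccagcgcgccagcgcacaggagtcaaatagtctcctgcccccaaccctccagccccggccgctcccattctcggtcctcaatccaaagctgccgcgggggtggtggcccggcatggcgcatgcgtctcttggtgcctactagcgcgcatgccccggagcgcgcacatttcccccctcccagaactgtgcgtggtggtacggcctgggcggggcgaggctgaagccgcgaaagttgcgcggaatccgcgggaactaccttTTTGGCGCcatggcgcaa
Cdk4: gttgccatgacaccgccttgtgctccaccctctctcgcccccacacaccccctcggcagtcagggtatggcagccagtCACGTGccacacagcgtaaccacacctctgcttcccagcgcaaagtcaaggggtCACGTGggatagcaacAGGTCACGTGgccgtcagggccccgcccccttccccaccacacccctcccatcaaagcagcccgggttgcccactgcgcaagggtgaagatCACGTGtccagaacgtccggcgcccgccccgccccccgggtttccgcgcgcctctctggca
Capitals mark the same words. Cdt1 held the E2F word TTTGGCGC at bases 283 to 290. Cdk4 held the E-box at bases 79 to 84, 133 to 138, 153 to 158 and 240 to 245, and AGGTCA at bases 149 to 154, which overlaps the E-box beginning at base 153.

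The clamp and its loader gave no call with T3 in any genotype. Pcna was at 11.14, 10.85 and 10.89 with PBS and at 11.14, 10.97 and 10.88 with T3 in WT. The groups overlapped, with a difference of 0.04 ± 0.09 and a 95% interval from -0.14 to 0.22, and in Y147F the interval ran from -0.15 to 0.21. Rfc4, a subunit of the clamp loader, was at 6.82, 6.78 and 6.79 in WT with PBS and at 6.51, 6.37 and 6.37 in KO with PBS. It was lower in KO by a difference of -0.38 ± 0.11 (limma, adjusted p = 0.0422), the 1 member called between these groups, against 6.87% of all genes. The call was lost in each of the 6 fits without 1 array (adjusted p from 0.0508 to 0.131). In GS with PBS, Rfc4 was at 6.41, 6.60 and 6.25, and its difference from WT of -0.38 ± 0.11 was not called (limma, adjusted p = 0.0697). With T3 it was at 6.35, 6.57 and 6.78 in WT, 6.69, 6.56 and 6.63 in KO and 6.50, 6.44 and 6.51 in GS, and in Y147F at 6.64, 6.77 and 6.41 with PBS and 6.41, 6.30 and 6.68 with T3.

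Between PBS groups no member was called for GS against KO (0.0989% of all genes) or for Y147F against WT (0.0848%). At an unadjusted p under 0.05 there were 4 members in each of these comparisons, 12.5% against 8.53% of all genes for GS and KO and 13.8% for Y147F and WT.

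Of the 7 G1 cyclins and kinases 6 were tested, and 2 fell in WT. Cdk4, the kinase of the D cyclins, was at 9.11, 9.04 and 9.08 with PBS and at 8.67, 8.63 and 8.76 with T3 in WT. All T3 arrays lay below all PBS arrays. The difference was -0.39 ± 0.08, a 1.31-fold fall (limma, adjusted p = 0.00305), and the call was kept in all 6 fits without 1 array. In Y147F it was at 9.06, 8.94 and 9.19 with PBS and at 8.65, 8.63 and 8.92 with T3, just without overlap. That difference was -0.33 ± 0.08 (limma, adjusted p = 0.0112), and the call was lost without PBS replicate 3 (adjusted p = 0.0652), T3 replicate 1 (0.0631) or T3 replicate 2 (0.0656). It was also lost with the arrays whose title number is above 100000 set apart by a covariate (-0.262, adjusted p = 0.075). All 3 probe sets of Cdk4 fell in both genotypes, with differences of -0.28 to -0.39 in WT and -0.31 to -0.40 in Y147F.

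In KO, Cdk4 was at 8.92, 8.88 and 9.01 with PBS and at 8.80, 8.98 and 8.88 with T3, and in GS at 8.94, 8.86 and 8.76 and at 8.95, 9.09 and 8.89. Both pairs of groups overlapped. The GS response differed from that in WT by 0.51 ± 0.12 (limma, adjusted p = 0.0163), so that with Rrm2 there were 2 such members, against 2.92% of all genes. By limma the call was lost without GS T3 replicate 2 (0.46, adjusted p = 0.0548) or GS PBS replicate 3 (0.47, adjusted p = 0.0535). The KO response differed from that in WT by 0.34 ± 0.12 (limma, adjusted p = 0.158).

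Cdk2, the kinase of the E cyclins, was at 8.76, 8.77 and 8.63 with PBS and at 8.54, 8.41 and 8.39 with T3 in WT. The groups did not overlap, and the difference was -0.27 ± 0.08, a 1.21-fold fall (limma, adjusted p = 0.0321). As for Mcm4, the call was lost without WT T3 replicate 2 or 3 or WT PBS replicate 1 or 2 (adjusted p from 0.109 to 0.119), and with the title number covariate (-0.261, adjusted p = 0.0523). In KO it was at 8.81, 8.63 and 9.02 with PBS and at 8.66, 8.79 and 8.81 with T3, in GS at 8.66, 8.74 and 8.70 and 8.80, 8.75 and 8.83, and in Y147F at 8.53, 8.62 and 8.61 and 8.56, 8.43 and 8.60. None of these differences, -0.06, 0.09 and -0.06, was called.

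Ccne1, cyclin E1, was called in Y147F, at 6.75, 6.60 and 6.42 with PBS and 7.08, 6.82 and 7.01 with T3. The rise was 0.38 ± 0.09, or 1.3-fold, without overlap (limma, adjusted p = 0.00568), and the other probe set rose by 0.61 (adjusted p = 0.00759). In WT it was at 6.82, 6.96 and 6.87 with PBS and at 6.91, 6.91 and 6.86 with T3, so the Y147F arrays with PBS were the low ones. With PBS, Y147F differed from WT by -0.29 ± 0.09 (limma, adjusted p = 0.169). In KO it was at 6.92, 7.02 and 6.86 and 7.04, 7.06 and 7.06, and in GS at 6.87, 6.88 and 7.06 and 6.76, 7.04 and 6.87, with no call. The Y147F and WT responses differed by 0.38 ± 0.12 (limma, adjusted p = 0.877).

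The D cyclins relay growth signals in G1 and none of them was called. Ccnd1, singled out after its values were seen, was at 8.48, 8.59 and 8.68 with PBS and at 8.55, 8.75 and 8.80 with T3 in WT. The groups overlapped, with a difference of 0.12 ± 0.13 and a 95% interval from -0.16 to 0.39. In KO it was at 8.76, 9.06 and 8.98 with PBS and at 8.42, 8.65 and 8.35 with T3, lower without overlap, and the difference of -0.46 ± 0.13 did not pass the test (limma, adjusted p = 0.187). It was 0.37 ± 0.13 in GS and 0.29 ± 0.13 in Y147F. The GS and KO responses differed by 0.83 ± 0.18 (limma, adjusted p = 0.512, unadjusted p = 2.3e-04), in a comparison in which limma called no gene (0.0%). There 3 members (9.38%) and 809 genes (5.71%) had an unadjusted p under 0.05. Ccnd2 and Ccnd3 differed in WT by 0.02 ± 0.10 and -0.14 ± 0.09.

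By their brightest probe sets the CDK inhibitors and the transcription factors gave no call with T3 in any genotype. Cdkn1a, the p21 inhibitor that p53 induces, differed by 0.06 ± 0.10 in WT and -0.29 ± 0.10 in Y147F (limma, adjusted p = 0.0691), where it was called without PBS replicate 2 or T3 replicate 1. Cdkn1b, p27, differed by -0.07 ± 0.10 in WT. Foxm1, a factor for late cycle genes, differed by -0.02 ± 0.08 in WT. E2f1, the E2F factor of the G1 to S step, differed by -0.09 ± 0.11 in WT, while a dimmer probe set of it was called lower there (-0.34, limma over all probe sets, adjusted p = 0.0239) and a further one was not (-0.17). In Y147F its difference of -0.25 ± 0.11 was called with the title number covariate (-0.372, limma, adjusted p = 0.0298) and without PBS replicate 1 (-0.356, adjusted p = 0.044).

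Myc, a growth regulator, spread more than the other members and is described after its values were seen. In KO it was at 7.40, 7.39 and 6.92 with PBS and at 9.25, 10.36 and 7.0 with T3, so 2 T3 arrays were high and 1 lay among the PBS arrays. The difference of 1.64 ± 0.53 did not pass the test (limma, adjusted p = 0.257), and without KO T3 replicate 3 it was 2.57 (adjusted p = 0.0041). In GS it was at 7.02, 7.26 and 6.87 with PBS and at 8.42, 6.84 and 7.12 with T3, with 1 high T3 array. In WT it was at 6.95, 8.31 and 7.42 with PBS and at 7.35, 7.03 and 7.13 with T3, with 1 high PBS array.

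None of the 7 tested genes of G2 and mitosis was called with T3 in any genotype. Cdk1, the kinase of mitotic entry, was at 6.91, 7.11 and 7.14 with PBS and at 7.10, 7.06 and 7.17 with T3 in WT, a difference of 0.06 ± 0.11. In WT, Ccna2 differed by 0.01, Ccnb2 by 0.05, the topoisomerase gene Top2a by 0.12, Aurka by -0.02, Plk1 by 0.04 and Cdc20 by -0.11. The 95% interval of each of the 7 lay within 1.5-fold in WT. In Y147F, Cdc20, the activator of the anaphase-promoting complex, named after its values were seen, was at 7.49, 7.45 and 7.36 with PBS and at 7.33, 7.20 and 7.11 with T3. These groups did not overlap, and the difference of -0.23 ± 0.08 did not pass the test (limma, adjusted p = 0.066).

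The arrays of the T3 and PBS groups did not overlap for 6 of 32 members in WT (18.8%), against 29.5% of all genes. The count was 6 in Y147F (18.8% against 26.0%), 9 in KO (28.1% against 15.2%) and 4 in GS (12.5% against 13.1%). In both WT and Y147F, Rrm2 was higher and Cdt1 and Cdk4 were lower without overlap, 9.38% of members against 13.7% of all genes. The 9 in KO were Rrm1, Mcm2, Gins1, Pcna, Rfc4, Ccne1 and Cdc20, higher with T3, and Mcm6 and Ccnd1, lower, with differences from -0.46 to 0.28. None of these 9 was called.

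Array means of markers of other cell types stood apart between T3 and PBS groups in several genotypes. In WT the mean per array of 12 endothelial markers was 9.05 to 9.11 with T3 and 9.28 to 9.32 with PBS, and that of 7 tested cholangiocyte markers was 6.03 to 6.23 and 6.44 to 6.75. None of these genes was called, while 7 and 5 of them had an unadjusted p under 0.05, against 23.2% of all genes. The mean of the 7 tested of 14 lymphocyte markers was 6.78 to 6.88 with T3 and 6.55 to 6.61 with PBS, and Ighm was the 1 called (2.19 ± 0.30), with 2 of its 7 tested probe sets. The median difference of the 7 was -0.08 and the lowest -0.17, so the higher mean rests on Ighm. In Y147F the endothelial means were 9.12 to 9.31 with T3 and 9.29 to 9.42 with PBS, which overlap, with a median difference of -0.15 and with Eng called higher (0.24 ± 0.06). The lymphocyte means there were 6.69 to 6.76 with T3 and 6.41 to 6.56 with PBS, with a median difference of -0.07, Ighm called higher (2.19 ± 0.30) and Cd79b called lower (-0.32 ± 0.10). The call of Eng was lost in 3 and that of Cd79b in all of the 6 fits without 1 array. In GS the endothelial means were 9.04 to 9.10 with T3 and 9.16 to 9.27 with PBS. There 5 of the 12 genes had an unadjusted p under 0.05 (7.01% of all genes), and none was called. In KO the cholangiocyte means were 6.15 to 6.27 with T3 and 6.29 to 6.97 with PBS. There 2 of the 7 genes had an unadjusted p under 0.05 (10.4% of all genes), and none was called. Of 12 stellate markers, Lrat was called higher with T3 in KO (1.33) and GS (1.61), against 0.177% and 0.148% of all genes called. In KO 6 of the 12 had an unadjusted p under 0.05 (10.4% of all genes), with a median difference of -0.28. Of 4 tested erythroid markers, Klf1 was called lower in Y147F (-0.44). That call was lost in several other settings and without PBS replicate 1 or 2 or T3 replicate 1 or 2. The part of these cell types in the results was not tested.

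Other genes of the same processes were read from lists that do not hold the members. Of 37 tested replication genes, 7 rose and 3 fell in WT, with a median of -0.04. Of all genes tested, 5.72% rose and 4.89% fell in WT, so this list held more calls than the background share. The excess was not tested. Gmnn, geminin, the inhibitor of Cdt1, was at 8.62, 9.02 and 8.96 with PBS and at 9.44, 9.58 and 9.50 with T3 in WT. The groups did not overlap, and the rise was 0.64 ± 0.11 (limma, adjusted p = 2.93e-04), with 0.44 ± 0.11 in Y147F (adjusted p = 0.00878). The Y147F call was lost with the title number covariate (0.374, adjusted p = 0.0572) and without PBS replicate 1 (0.375). In KO and GS the differences were 0.34 ± 0.11 and 0.37 ± 0.11, not called, and they differed from that in WT by -0.30 ± 0.15 and -0.27 ± 0.15 (limma, adjusted p = 0.435 and 0.471).

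Dck, the deoxycytidine kinase of nucleotide salvage, rose by 0.66 ± 0.14 in WT (limma, adjusted p = 0.00229). Pola1, the catalytic subunit of DNA polymerase alpha, rose by 0.60 ± 0.13 in WT and 0.57 ± 0.13 in Y147F (limma, adjusted p = 0.00317 and 0.00498). Mcm10, a replication factor outside the ring, was read by the brightest of its 3 probe sets. It was at 11.83, 11.74 and 11.85 with PBS and at 11.11, 10.98 and 10.82 with T3 in WT. It fell, with a difference of -0.84 ± 0.11 (limma, adjusted p = 1.47e-05), and of -0.72 ± 0.11 in Y147F (adjusted p = 1.06e-04). These values rest on that probe set. With the mean of the 3, the difference of the Mcm10 response in KO from that in WT went from 0.72 to 0.391 and was not called (limma, adjusted p = 0.0726). In Y147F 6 of the 37 rose and 2 fell, against 5.52% and 6.09% of all genes. Orc2, a subunit of the origin recognition complex (0.44 ± 0.09), and the polymerase gene Pole (0.33 ± 0.07) were among the risers. None of the 37 was called in KO or GS, where 2 and 5 had an unadjusted p under 0.05, against 10.4% and 7.01% of all genes.

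Of 33 tested genes of mitosis, 1 rose and 1 fell in WT, below the 5.72% and 4.89% of all genes. Cenpa, the histone variant of centromeres, was at 6.07, 6.30 and 6.33 with PBS and at 7.74, 8.24 and 8.05 with T3. The rise was 1.78 ± 0.14 in WT (limma, adjusted p = 2.35e-08) and 1.39 ± 0.14 in Y147F (adjusted p = 1.07e-06), and the mean of its probe sets rose by 0.69 and 0.54. In KO it was at 6.74, 6.79 and 7.23 with PBS and at 7.45, 7.44 and 7.40 with T3, a difference of 0.51 ± 0.14 that was not called (adjusted p = 0.186). In GS, Cenpa was at 7.01, 6.91 and 7.02 with PBS and at 7.59, 7.79 and 7.54 with T3, also not called. The T3 arrays lay above the PBS arrays in both. Groups were apart in either direction for 15.2% of all genes in KO and 13.1% in GS.

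Ccnf, cyclin F, went the other way, at 8.82, 8.49 and 8.60 with PBS and at 6.90, 7.21 and 7.04 with T3 in WT. The difference was -1.58 ± 0.21 in WT (limma, adjusted p = 2.48e-05) and -1.64 ± 0.21 in Y147F (adjusted p = 2.25e-05), and both of its probe sets fell in both genotypes. Smc4, a condensin gene, fell in Y147F as well (-0.34 ± 0.10, limma, adjusted p = 0.0346). That call was lost in 4 of 9 other settings and in 4 of 6 fits without 1 array, PBS replicate 2 or 3 or T3 replicate 1 or 2 (-0.344 to -0.268, adjusted p from 0.0779 to 0.174). None of the 33 was called in KO or GS, where 4 and 3 had an unadjusted p under 0.05, against 10.4% and 7.01% of all genes.

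Of 36 tested genes of cycle control, Cdk6, a partner of the D cyclins, fell in WT (-0.45 ± 0.13, limma, adjusted p = 0.0262) and none rose. Over all genes 4.89% fell and 5.72% rose there. The Cdk6 call was lost when only the compared arrays were fitted (limma, adjusted p = 0.0566) and in each fit without 1 WT array other than PBS replicate 1 (-0.464 to -0.334, adjusted p from 0.0594 to 0.143). In Y147F 4 fell, Ccnh (-0.24), Mxi1 (-0.29), Mycl (-0.50) and Cdkn1c (-0.34). All 4 lost their calls when only the compared arrays were fitted and with the title number covariate (limma, adjusted p from 0.0717 to 0.176), and at a minimum of 1.5-fold. Cdkn1c also lost its call with quantile normalization, without the filter and with array weights (limma, adjusted p = 0.067, 0.0582 and 0.162). Mxi1 lost its call with the mean of probe sets (0.0883). Without T3 replicate 1 all 4 lost their calls as well (adjusted p from 0.0859 to 0.175). Of the 6 fits without 1 array, Cdkn1c kept its call in the 1 without T3 replicate 2, Ccnh in the 2 without PBS replicate 3 or T3 replicate 3, and Mxi1 and Mycl in the 3 without PBS replicate 1 or 2 or T3 replicate 3. Of 18 genes of p53 and the checkpoints, 4 rose and 3 fell with T3 in WT, while Y147F had 2 rises and 4 falls. Over all genes the shares up and down were 5.72% and 4.89% in WT and 5.52% and 6.09% in Y147F. This list thus held more calls than the background share in both, which was not tested. Gadd45a, a growth arrest gene, rose by 2.31 ± 0.26 in WT and 1.91 ± 0.26 in Y147F (limma, adjusted p = 2.80e-06 and 3.92e-05). The antiproliferative genes Btg1 and Btg2 differed by -0.76 ± 0.10 and -1.02 ± 0.20 in WT, and Sesn2 by -0.46 ± 0.09 (limma, adjusted p = 2.26e-05, 0.00187 and 0.00237). Neither list held a call in KO, where 4 and 5 genes had an unadjusted p under 0.05, or in GS, with 0 and 1. Over all genes 10.4% had such a p in KO and 7.01% in GS.

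**Figure D4:**
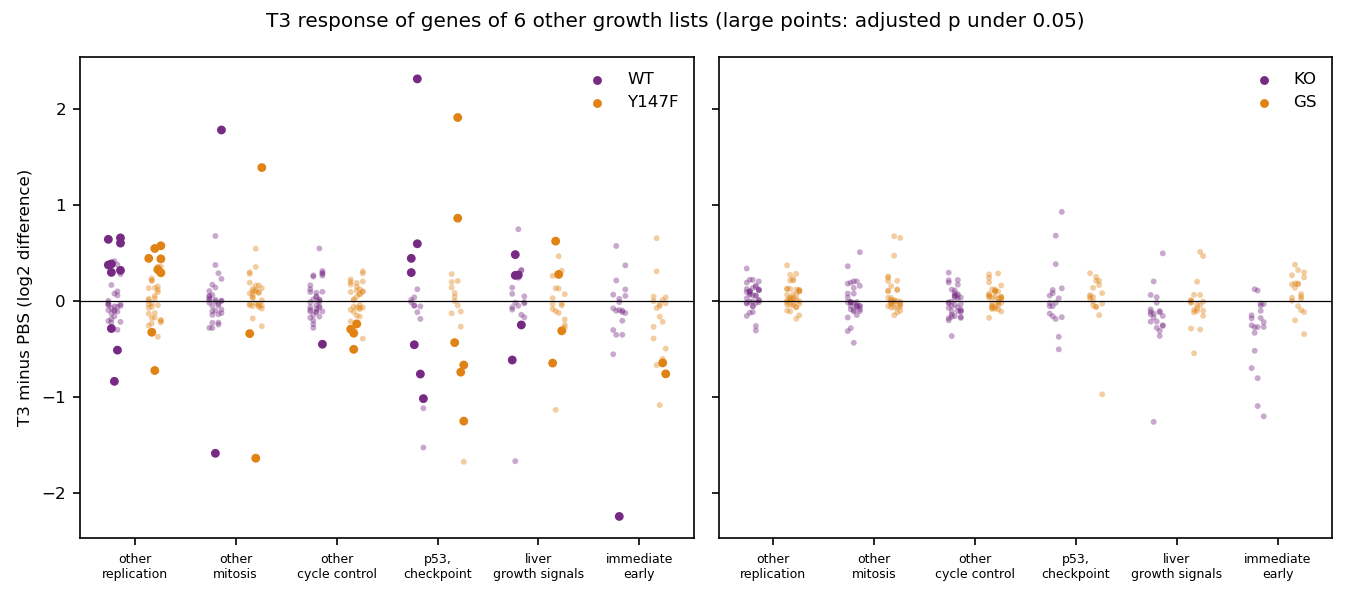
Log2 difference of T3 minus PBS for the tested genes of 6 further lists in WT, Y147F, KO and GS, with genes at an adjusted p under 0.05 marked. Gadd45a (2.31) and Cenpa (1.78) stand highest and Nr4a1 (-2.24) and Ccnf (-1.58) low in WT, and no gene of these lists is marked in KO or GS.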

How the data were processed

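The deposited values are log2 probe set intensities of Affymetrix mouse expression arrays, summarised by the authors with RMA per the submitters' processing notes, which name no version. In the 6 deposited Y147F columns, which are in no unit as they stand, the decimal mark was missing. It was put back so that each value lay from 3 to 16, and 814 cells (0.301%) that stayed ambiguous were set missing, none of them of a member. The same steps on the 18 intact columns restored no cell wrongly. The 45101 probe sets were paired with 1 gene symbol (34958), several (932) or none (9211), and a gene is its brightest probe set of 1 symbol. Genes at or above the 40th percentile of their array in at least 3 arrays were tested.

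Differences came from limma 3.58.1 (lmFit and eBayes, R 4.3.3) on 8 group means and 12 contrasts, two-sided, with Benjamini-Hochberg adjustment over 14159 genes. All 24 arrays shared 1 estimate of the spread, and 3 arrays a group limit the precision. Every array value was given for members called in any contrast or apart in WT and Y147F alike, and up to 4 called genes were named from each other list. The members and the 15 lists were chosen with earlier results of these data known. The limma script was tested on simulated data. Alternatives were 10 other settings and leaving out each of the 24 arrays. In 1 of them a covariate set apart arrays whose title number is above 100000. Above it were all KO and all Y147F PBS arrays, Y147F T3 replicate 3, and replicate 1 of WT PBS, GS T3 and GS PBS. The split is thus tied to treatment in Y147F and to genotype between KO and WT. Promoters came from RefSeq (GRCm38.p6).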

Additional observations from a re-analysis of the deposited data

Results flagged for a closer look

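These responses to T3 differed from that in WT by the test of the difference itself (limma, adjusted p under 0.05). Values are log2 differences, and a negative one means a lower T3 difference than in WT. Between KO and WT they were Rrm2 (-1.378, adjusted p = 0.0178), Cenpa (-1.271, 8.12e-04), Gadd45a (-1.632, 0.0152), Ccnf (1.151, 0.041), Btg1 (0.787, 0.00278) and Mcm10 (0.72, 0.00927). Between GS and WT they were Rrm2 (-1.904, adjusted p = 0.00122), Cenpa (-1.123, 0.00234), Gadd45a (-2.062, 0.00215), Cdk4 (0.513, 0.0163), Ccnf (1.438, 0.00898), Btg1 (0.613, 0.0209), Btg2 (1.098, 0.0415), Mcm10 (0.79, 0.0045) and Nr4a1 (2.564, 0.0229). Rrm2, Cenpa and Gadd45a rose and Ccnf, Btg1 and Mcm10 fell with T3 in WT. Some of these genes also differed from WT with PBS alone, and both comparisons use the same PBS arrays. With PBS, Cenpa was called higher and Btg1 lower in both KO and GS. Rrm2 and Gadd45a were called higher and Nr4a1 lower in GS. Over all genes 6.87% (KO) and 2.95% (GS) were called between PBS groups. How far these differences without hormone make up the differences in response was not tested. Between KO and WT, Ccnf lost its call in 4 of 10 other settings and in all fits without 1 array but those without KO T3 replicate 2 or KO PBS replicate 2 (0.934 to 1.231, limma, adjusted p from 0.0521 to 0.118). Gadd45a lost it without WT T3 replicate 1 (-1.463, adjusted p = 0.052) or WT PBS replicate 2 (-1.44, 0.0538), Mcm10 with the mean of probe sets (0.391, 0.0726), and Rrm2 in 6 of 12 fits without 1 array. Between GS and WT, Btg2 lost its call in 2 of 10 settings and in 8 of 12 fits without 1 array, WT T3 replicate 2 or 3, WT PBS replicate 1 or 2, GS T3 replicate 1 or 2, or GS PBS replicate 1 or 2 (0.959 to 1.15, limma, adjusted p from 0.063 to 0.128). Btg1 lost it in 2 settings (adjusted p = 0.0571 and 0.0814) and without WT T3 replicate 2, WT PBS replicate 1, GS T3 replicate 1 or GS PBS replicate 3 (0.493 to 0.595, adjusted p from 0.054 to 0.0674). Nr4a1 lost it in 1 setting (adjusted p = 0.0518) and without WT T3 replicate 2, WT PBS replicate 2, GS T3 replicate 2 or GS PBS replicate 1 (1.987 to 2.538, adjusted p from 0.0531 to 0.0757), and Cdk4 at a minimum of 1.5-fold and without GS T3 replicate 2 or GS PBS replicate 3. For Cenpa, averaging its probe sets gave -0.36 between GS and WT and ended the call (limma, adjusted p = 0.0982).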

How the results depend on the processing

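For the called members, and for the genes named from other lists, no direction of a called difference was reversed by the 10 other settings or by leaving out an array. In WT the 5 members called with T3 became 3 with the mean of probe sets and 3 with only the compared arrays fitted, both without Cdk2 and Mcm4, and 1 (Rrm2) at a minimum of 1.5-fold, which left 2 of 4 in Y147F and 1 of 2 for GS minus WT. The 1 call for KO minus WT became 3 with the mean of probe sets (Ccnd1 and Rfc4 added). The 1 call between PBS groups of KO and WT became 0 without the filter and 0 at 1.5-fold. The 1 between GS and WT became 2 with the mean of probe sets, with first submission arrays only and with array weights. Leaving out 1 array gave 2 to 6 calls in WT, 0 to 1 in KO, 0 in GS and 3 to 5 in Y147F. It gave 0 to 1 for KO minus WT, 1 to 2 for GS minus WT, 0 for PBS KO against WT and 0 to 1 for PBS GS against WT. Rrm2 in WT kept its call throughout, at 1.48 to 1.82. In Y147F, Ccne1 and Cdk4 lost theirs when only the compared arrays were fitted, and Cdk4 with the title number covariate, as Cdk2 did in WT. The 4 calls in Y147F became 6 with the filter at the 60th percentile and with array weights (Mcm5 and Cdc20 added). The causes were not tested.

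Over all genes, fitting only the compared arrays moved the calls with T3 from 25 to 6 in KO, 21 to 2 in GS and 1644 to 864 in Y147F, and between PBS groups from 973 to 382 (KO) and 418 to 211 (GS). At 1.5-fold there were 519 calls in WT (61.5% higher, against 53.9%), 471 in Y147F, 16 in KO and 12 in GS, and 272 and 141 between PBS groups. Of the fits without 1 array, 1084 genes were left in Y147F without T3 replicate 1, 16 in KO without T3 replicate 1, and 10 to 13 in GS without T3 replicate 2 or 3 or PBS replicate 2 or 3. For PBS KO against WT there were 524 without KO replicate 3, 641 without KO replicate 2 and 581 without WT replicate 2. For PBS GS against WT there were 235, 246 and 275 without GS replicate 3, 1 and 2, and 261 without WT replicate 1 or 2. The 14 between PBS groups of GS and KO ranged from 3 to 45 over all fits, and the 12 of Y147F and WT from 0 to 30. Array weights gave 668 for PBS GS against WT. With the title number covariate there were 1169 with T3 in Y147F and 653 for PBS KO against WT. No paired analysis was possible because the labels give the groups no shared replicate numbers, and the numbers here only follow the order of submission. Dim genes and small changes are what 3 arrays a group limit most.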

Other observations

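Of 21 tested genes of liver growth signals, 3 rose and 2 fell with T3 in WT, against 5.72% and 4.89% of all genes. Igf1, insulin-like growth factor 1, fell (-0.61 ± 0.11 in WT and -0.65 ± 0.11 in Y147F, limma, adjusted p = 7.75e-04 and 5.16e-04). Met, the receptor of hepatocyte growth factor, rose by 0.27 ± 0.08 and 0.28 ± 0.08 (limma, adjusted p = 0.0321 and 0.0269). Its calls were lost when only the compared arrays were fitted (limma, adjusted p = 0.0636 and 0.0995). They were lost as well in 5 of 6 fits without 1 WT array (all but T3 replicate 3, adjusted p from 0.0514 to 0.137) and in 4 of 6 without 1 Y147F array (PBS replicate 1 or 2, T3 replicate 1 or 3, adjusted p from 0.0713 to 0.092). Lgr5, a Wnt pathway receptor, rose by 0.48 ± 0.12 and 0.62 ± 0.12, while its other probe set gave -0.05 and -0.23, and the WT call was lost without T3 replicate 3 (0.418, adjusted p = 0.0569) or PBS replicate 3 (0.409, adjusted p = 0.0547). Of 20 tested immediate early genes none rose, and Nr4a1, an orphan nuclear receptor, fell in WT (-2.24 ± 0.43, limma, adjusted p = 0.00132), while Klf4 (-0.76 ± 0.15) and Klf2 (-0.64 ± 0.18) fell in Y147F. Over all genes 5.72% rose and 4.89% fell in WT, and 5.52% and 6.09% in Y147F. With 20 genes, counts this small are close to those shares. The Klf2 call was lost when only the compared arrays were fitted (limma, adjusted p = 0.0523), with the title number covariate (0.0686) and without PBS replicate 2 or 3 or T3 replicate 1 or 2 (-0.658 to -0.481, adjusted p from 0.0543 to 0.147). Neither list held a call in KO (3 and 4 genes at an unadjusted p under 0.05) or GS (3 and 0). Over all genes 10.4% had such a p in KO and 7.01% in GS. None of the 13 Kupffer cell markers was called with T3 in any genotype by limma, with no unadjusted p under 0.05.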
